A study of Xenopus tropicalis with 15 samples.

Results

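The comparison described here sets the dorsal end of the X. tropicalis embryonic axis against its ventral end, using gastrulae that had been dorsalised with LiCl and gastrulae that had been ventralised with UV light. It holds 10 of the 15 RNA-seq libraries of the series, 5 LiCl-treated and 5 UV-treated, and the 5 untreated libraries are given as background levels without a test. All embryos came from the wild-type, out-bred Nigerian strain and were taken whole at stage 11 to 11.5, with 10 embryos pooled in each library and polyadenylated RNA sequenced. LiCl was given at 0.3 M at the 32-cell stage, the vegetal pole was irradiated with UV over 2 min within the 30 min that followed fertilisation, and untreated embryos received neither. The libraries came from independent experiments on clutches whose siblings later showed the phenotype at high penetrance, so each value is a mean over pooled embryos of mixed genetic background. Genes were kept when they reached at least 10 counts in 5 or more of the 10 libraries, which left 13480 of 28206 genes.

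In the frog embryo, maternal β-catenin accumulates on the future dorsal side and switches on the genes of the Spemann organiser, a group of dorsal mesoderm cells at the blastopore lip. The organiser secretes antagonists of BMP and Wnt ligands, and ectoderm shielded from BMP becomes neural plate while ectoderm that receives it becomes epidermis. Lithium stabilises β-catenin throughout the embryo by inhibiting GSK3, and UV irradiation of the vegetal pole blocks the cortical rotation that carries the dorsal signal to its side.

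Total counts per library ranged from 8412818 to 17737546 in LiCl and from 11890416 to 18254396 in UV. Levels are given in CPM, which are counts scaled to a common library size with TMM factors, and are compared between conditions for a gene and not between genes unless a length is named. LiCl 4 stood apart from its group. Its log2 CPM values correlated with those of the other LiCl libraries at r = 0.914 to 0.930, while all other pairs within a condition lay between 0.964 and 0.994. The pair at 0.994 was UV 4 and UV 5, which differed by more than counting noise (chi-square of 4.72 per gene). They were still far closer than any other pair within a condition, which ranged from 16.97 (LiCl 1 and LiCl 2) to 116 (LiCl 3 and LiCl 4). Why they were so close was not tested. No fit left out both, so results that rest on UV 4 and UV 5 together were not checked without them. The summed level of 25 maternal and egg genes was 5422 CPM in LiCl 4 against 2583 to 3407 CPM in the other LiCl libraries, 3827 to 4743 CPM in UV and 2604 to 4962 CPM in untreated embryos, with untreated 4 the highest. Counts of list members without LiCl 4, or without another library, are given where they moved by more than 1.5 times.

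The libraries were ordered by 18 genes known for their position along the axis, 10 dorsal and 8 ventral. The mean of log2(CPM + 1) was taken over each group of genes in each library. The study names all 18 genes for these directions from the same libraries, so the order is descriptive and no independent check of the labels. The dorsal mean minus the ventral mean was 1.82, 1.72, 1.96, 3.10 and 0.55 in LiCl 1 to 5 and −3.91, −3.44, −2.50, −5.32 and −5.05 in UV 1 to 5. Untreated libraries lay between the 2 treatments, from −2.45 to −0.71, and overlapped with neither. The high LiCl 4 value came mainly from its ventral mean, 4.345 against 5.193 to 6.601 in the other LiCl libraries. Its dorsal mean of 7.444 was near the 7.359 of LiCl 1. For the organiser and axial mesoderm genes described below, its summed level was the lowest in LiCl (3456 CPM against 3992 to 4813 CPM). By the difference of means, LiCl 4 was highest and LiCl 5 lowest of the LiCl libraries. Among the UV libraries, UV 3 had the least negative difference and UV 4 and UV 5 the most negative. Several differences below follow this order, with UV 4 and UV 5 highest and LiCl 5 the highest of the LiCl libraries.

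**Figure D1:**
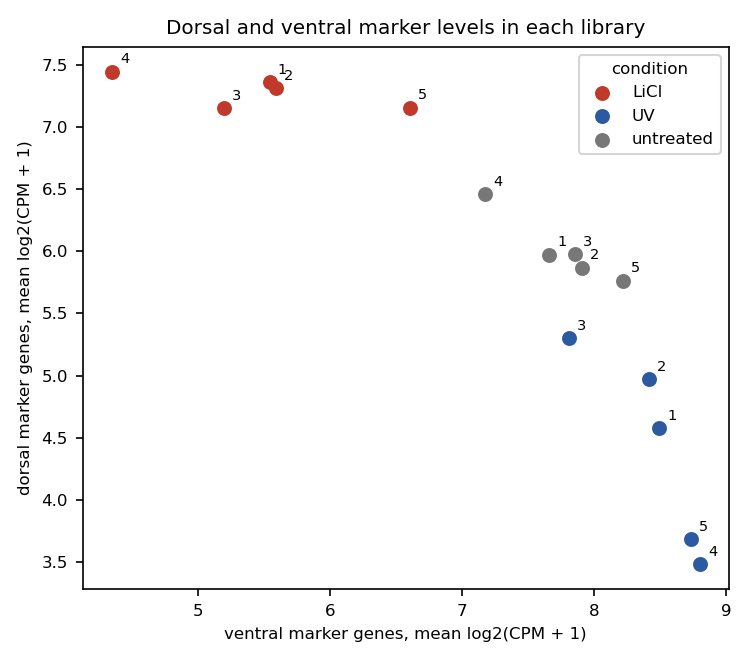
Mean log2(CPM + 1) of 10 dorsal (vertical axis) and 8 ventral (horizontal axis) marker genes, 1 point per library, with the replicate number beside it. LiCl libraries lie at the upper left (dorsal minus ventral 0.55 to 3.10), UV libraries at the lower right (−5.32 to −2.50), and untreated libraries between them.

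Of the 13480 genes tested, 751 (5.57%) differed by at least 2-fold at an FDR of at most 1% in edgeR's quasi-likelihood test, 422 (3.13%) of them higher in LiCl and 329 (2.44%) higher in UV. All adjusted p-values below come from this test, with Benjamini-Hochberg adjustment over the 13480 genes, and a gene is said to be higher in a condition only when it passed this threshold. Over all genes tested the median log2 fold change of LiCl over UV was 0.02. The LiCl and UV libraries did not overlap for 1653 genes (12.3% of those tested), among them 376 of the 422 genes higher in LiCl and 325 of the 329 genes higher in UV. The size of the difference was at least 8-fold for 123 genes higher in LiCl and for 101 higher in UV. Genes higher in LiCl were expressed at lower levels, with a median of 8.45 CPM over the 10 libraries against 27.2 CPM for genes higher in UV and 14.7 CPM for all genes tested. They also more often lacked a gene symbol, 37.2% of them against 27.4% of genes higher in UV and 23.3% of all genes tested. Median exon length hardly differed, at 2479, 2465 and 2524 bases.

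The filter let in 65 genes that reached 10 counts in every LiCl library and in no UV library, of which 53 were called, and 27 genes of the opposite kind, of which 18 were called. Such genes could pass only by being high in a single condition, so those described below are given by their levels, and where a call was lost without a library that is stated, but no fold change is given outside the range of a list. They are fezf2, fbn3, slc16a9, cdh6, pcdh12, fap and sftpa in LiCl, cthrc1 and atp6v0a4 in UV, and the genes with bounds near the end. Other genes reached 10 counts in a single library of the lower condition and still passed only through the higher one. Among them are akr1c1, fmo2, nova1, frmd3 and pdp2 in LiCl. In UV they include tp63, dynlt3, dlx3, hoxb4, hoxa7, slc19a2, slc9a3r2 and vill. Where their fold changes, p-values or calls are given below, these rest on low counts and are no independent support for a difference. In bulk samples such as these, fewer cells of a type and less RNA per cell cannot be told apart. The total depended on single libraries and was 1158 without LiCl 4 (753 higher in LiCl and 405 in UV) and between 448 and 493 without UV 5, UV 4, LiCl 3 or LiCl 2. A call was held in all 10 fits with a single library left out by 199 genes higher in LiCl and 187 higher in UV.

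Untreated embryos did not sit midway between the treatments. For 312 of the 422 genes higher in LiCl (73.9%) the untreated mean lay nearer to the UV mean, and for 30 of the 329 genes higher in UV (9.12%) it lay nearer to the LiCl mean. The median difference from untreated embryos, on log2(mean CPM + 0.1), was 1.57 in LiCl and −0.54 in UV for genes higher in LiCl, and −1.63 in LiCl and 0.49 in UV for genes higher in UV. These untreated values are descriptive, with no test.

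**Figure D2:**
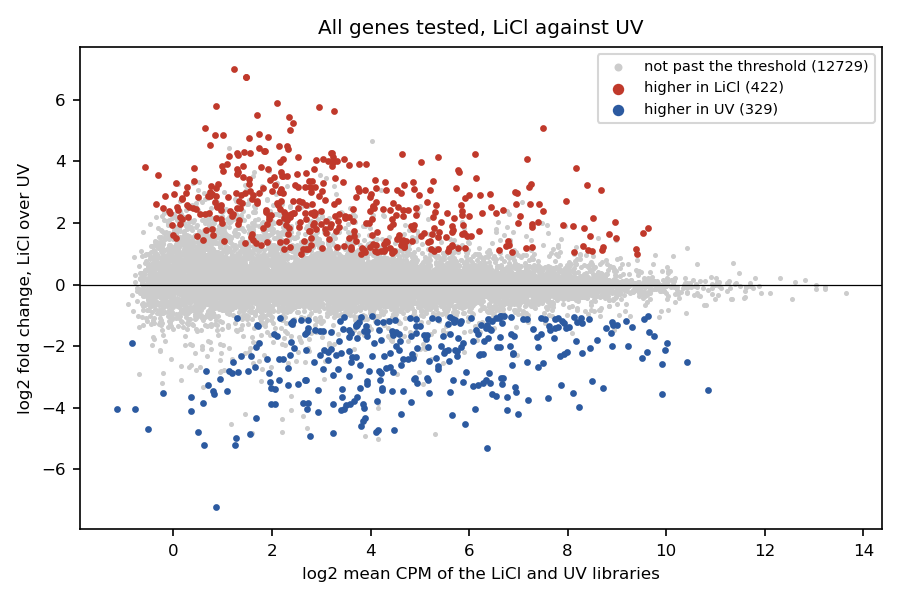
Log2 fold change of LiCl over UV (vertical axis) against log2 mean CPM of both conditions (horizontal axis), 1 point per gene tested. The 422 genes higher in LiCl (red) lie on average further left, at lower expression, than the 329 genes higher in UV (blue).

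Genes were then grouped into 33 lists by germ layer, signalling pathway and cell function, from which genes discussed in the study's own text were set aside. A list is described by how many of its tested members were higher in each condition, to be read against 3.13% and 2.44% of all genes, and by its median log2 fold change, to be read against 0.02.

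**Figure D3:**
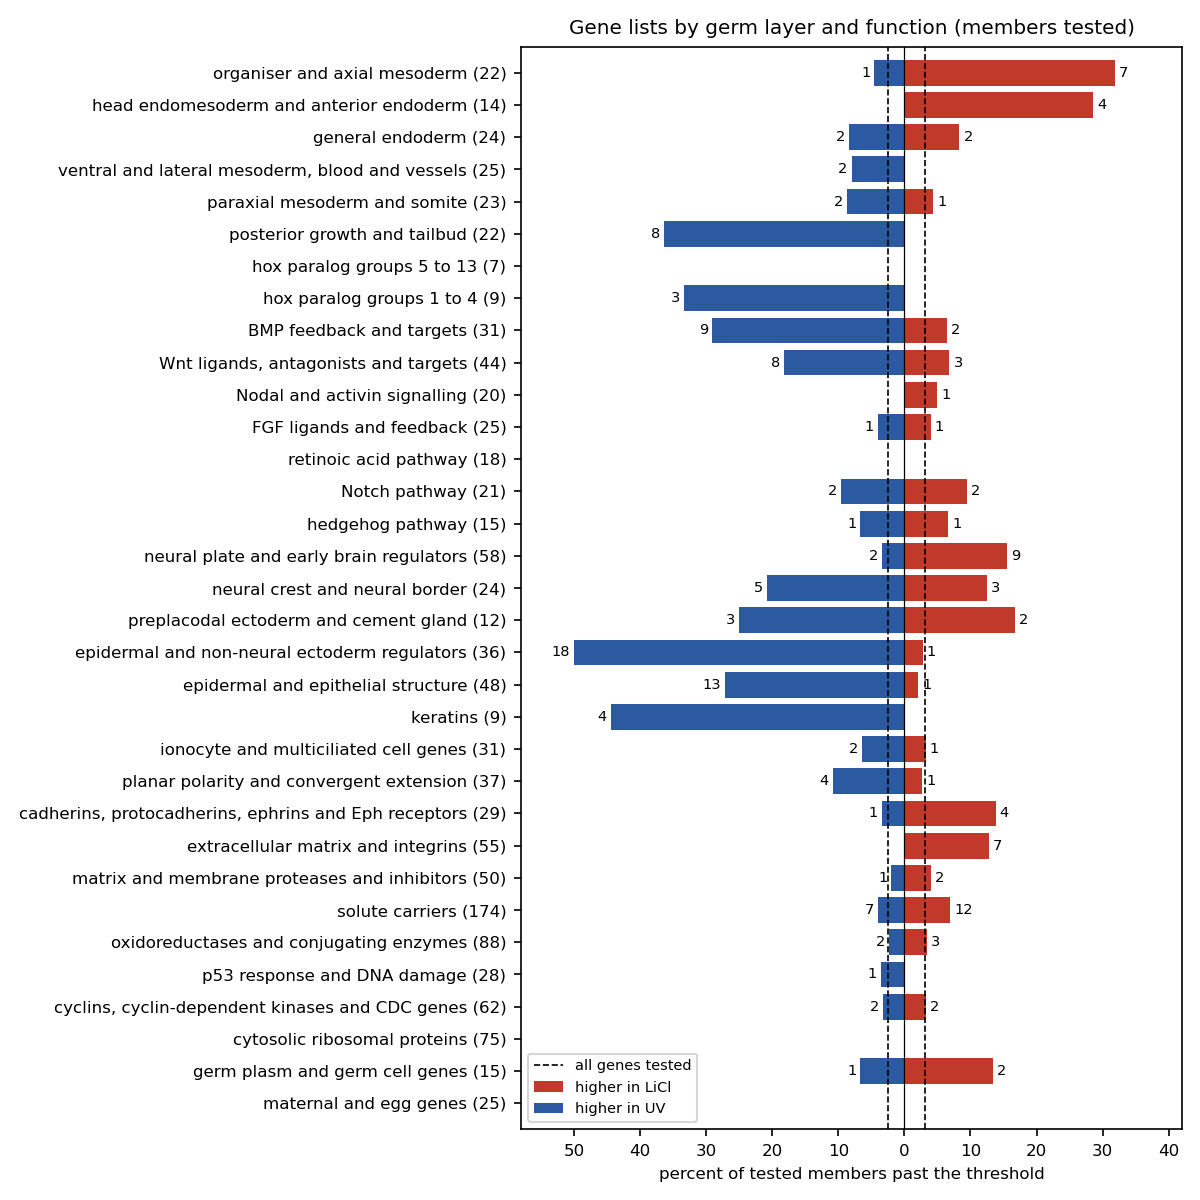
Percent of the tested members of each list that were higher in LiCl (red, to the right) or higher in UV (blue, to the left), with the count at the end of each bar and the number of members tested in brackets. Dashed lines mark the percentages over all genes tested. The lists of epidermal regulators (18 of 36) and of organiser and axial mesoderm (7 of 22) have the longest bars in their directions.

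In the organiser and axial mesoderm list, the genes that passed the test lay mostly towards LiCl. Of its 22 tested genes, 7 were higher in LiCl and 1 was higher in UV, with a median log2 fold change of 0.59. The members are not all restricted to dorsal mesoderm. One of the 7 is foxd4l1.1, whose paralogue foxd4l1.2 is described below with the neural genes. The count in LiCl was 4 without UV 1 or UV 4 and 9 without LiCl 4. The list summed to 3456 to 4813 CPM in LiCl and 2913 to 3566 CPM in UV, which overlapped. Untreated sums, 3721 to 4664 CPM, lay with LiCl. Of the members higher in LiCl, shh and ripply2.1 had untreated means near the LiCl mean. For dkkx, nkx6-2 and hes7.1 the untreated mean was above it, and for frzb2 and foxd4l1.1 it lay between the treatments. Among the marker genes, chrd, which encodes the secreted BMP antagonist Chordin, was counted at 704, 500.2, 578, 452 and 458 CPM in LiCl 1 to 5 and 19.0, 44.2, 102, 11.4 and 18.4 CPM in UV 1 to 5. The 2 conditions were far apart (log2 fold change 3.78 ± 0.55 SE, edgeR adjusted p = 0.0014), and the untreated libraries lay between them at 174, 156, 167, 211 and 157 CPM in untreated 1 to 5. The chrd gene overlaps a gene on the opposite strand by its start and end positions, so its counts are uncertain. The nog gene, another secreted BMP antagonist, had 62.9, 68.2, 69.8, 68.2 and 59.8 CPM in LiCl 1 to 5 and 10.4, 12.4, 9.58, 2.65 and 4.39 CPM in UV 1 to 5. For nog the log2 fold change was 3.06 ± 0.36 SE (edgeR adjusted p = 0.000614). The direct β-catenin target sia1 had 9.69, 18.8, 7.94, 35.7 and 14.8 CPM in LiCl 1 to 5 and 0.903, 1.38, 1.45, 0.301 and 0.344 CPM in UV 1 to 5. For sia1 the log2 fold change was 4.28 ± 0.55 SE (edgeR adjusted p = 0.000848). Untreated embryos had 0.716, 0.0642, 1.33, 3.25 and 0.353 CPM in untreated 1 to 5. For each of these genes the lowest LiCl library lay above the highest UV library.

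The homeobox repressor gene gsc had 223, 229, 129.6, 544 and 243 CPM in LiCl 1 to 5 and 13.1, 22.6, 40.2, 2.59 and 2.24 CPM in UV 1 to 5. LiCl 4 was above every other library (log2 fold change 4.08 ± 0.76 SE, edgeR adjusted p = 0.00466, call lost without LiCl 1, LiCl 2, UV 1 or UV 2, with an adjusted p of up to 0.0143). The Frizzled-related gene frzb2, whose product binds Wnt ligands outside the cell, had 413, 354, 427, 214 and 348 CPM in LiCl 1 to 5 and 1.95, 20.8, 26.6, 1.32 and 1.21 CPM in UV 1 to 5. UV 1, UV 4 and UV 5 were all below UV 2 and UV 3, and untreated embryos had 146, 169.8, 162, 158 and 169 CPM in untreated 1 to 5 (log2 fold change 5.07 ± 0.88 SE, edgeR adjusted p = 0.0031). The bHLH repressor gene hes7.1 had 27.8, 16.5, 33.9, 21.2 and 20.5 CPM in LiCl 1 to 5 and 1.81, 2.19, 7.43, 0.904 and 1.21 CPM in UV 1 to 5. For hes7.1 the log2 fold change was 3.12 ± 0.53 SE (edgeR adjusted p = 0.00277). Its untreated mean of 30.9 CPM was above the LiCl mean of 24.0 CPM. The notochord and floor plate ligand gene shh had 14.1 ± 7.41 CPM in LiCl and 0.821 ± 0.860 CPM in UV (mean ± SD, n = 5), with LiCl 4 the lowest of its group at 1.31 CPM and inside the UV range (log2 fold change 4.04 ± 0.78 SE, edgeR adjusted p = 0.00545, call lost without any library except LiCl 4 and UV 3, with an adjusted p of up to 0.018). The gene higher in UV was pnhd, which encodes the secreted protein Pinhead, with 172, 192, 147, 144 and 236 CPM in LiCl 1 to 5 and 384, 449.5, 410.1, 390.3 and 415 CPM in UV 1 to 5. For pnhd the log2 fold change was −1.20 ± 0.14 SE (edgeR adjusted p = 0.000563).

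Genes of the head mesoderm and anterior endoderm lay towards LiCl. In this list 4 of 14 tested genes were higher in LiCl and none in UV, 12 of 14 had a positive log2 fold change and the median was 1.10. The count was 6 without LiCl 4 and 2 without any other library except UV 3. The GATA factor gene gata4 had 523, 521, 527, 343 and 336 CPM in LiCl 1 to 5 and 208, 239.6, 204, 146 and 135 CPM in UV 1 to 5. For gata4 the log2 fold change was 1.27 ± 0.20 SE (edgeR adjusted p = 0.00184). Untreated embryos lay nearer to UV at 214, 191, 191, 272 and 188 CPM in untreated 1 to 5. The homeobox gene hhex of the anterior endoderm had 156, 145, 142, 175 and 145 CPM in LiCl 1 to 5 and 24.7, 31.1, 31.9, 5.12 and 6.20 CPM in UV 1 to 5. For hhex the log2 fold change was 2.94 ± 0.48 SE (edgeR adjusted p = 0.00232). UV 4 and UV 5 were the lowest for hhex. The Otx-family gene crx had 599 ± 106 CPM in LiCl and 133 ± 107 CPM in UV (mean ± SD, n = 5) (log2 fold change 2.17 ± 0.44 SE, edgeR adjusted p = 0.00764, call lost without any library except LiCl 4 and UV 3, with an adjusted p of up to 0.0213). Untreated embryos lay nearer to LiCl for crx, at a mean of 650.0 CPM. Anterior markers otx2 and cer1, the latter encoding the secreted inhibitor Cerberus, had log2 fold changes of 2.68 and 1.41. The gene otx2 had 278, 181, 240.1, 286 and 177 CPM in LiCl 1 to 5 and 31.3, 50.8, 82.5, 9.40 and 6.46 CPM in UV 1 to 5, did not overlap between conditions, and missed the threshold (edgeR adjusted p = 0.0109).

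The general endoderm list had genes past the threshold in both directions, but those higher in UV were posterior genes. Of its 24 tested genes, 2 were higher in LiCl and 2 in UV, with a median log2 fold change of −0.13. The members sox17a, sox17b.1, gata5, gata6, mixer and mix1 were not called, at log2 fold changes from −0.245 to 0.672. The genes higher in LiCl were darmin, an endodermal peptidase gene of Xenopus, and slc5a8, a monocarboxylate transporter gene. The gene darmin had 1427, 1405, 1283, 395 and 1151 CPM in LiCl 1 to 5 and 327, 446, 329, 307 and 356 CPM in UV 1 to 5. For darmin the log2 fold change was 1.68 ± 0.29 SE (edgeR adjusted p = 0.00297, call lost without UV 4 or UV 5, with an adjusted p of up to 0.0109). For darmin LiCl 4 was the lowest of its group and lay within the UV range. The gene slc5a8 had 156 ± 55.3 CPM in LiCl and 31.4 ± 16.1 CPM in UV (mean ± SD, n = 5) (log2 fold change 2.31 ± 0.39 SE, edgeR adjusted p = 0.00279). The genes higher in UV, cdx1 and cdx2, are posterior homeobox genes that the list shares with the posterior growth list. The gene cdx1 had 52.4 ± 26.4 CPM in LiCl and 309 ± 106 CPM in UV (mean ± SD, n = 5) (log2 fold change −2.56 ± 0.46 SE, edgeR adjusted p = 0.00363, call lost without LiCl 2, LiCl 3, UV 4 or UV 5, with an adjusted p of up to 0.0128) and cdx2 had 91.2 ± 58.4 CPM in LiCl and 416 ± 115 CPM in UV (mean ± SD, n = 5) (log2 fold change −2.19 ± 0.46 SE, edgeR adjusted p = 0.00878, call lost without any library except LiCl 4 and LiCl 5, with an adjusted p of up to 0.028), and the count of 2 was 4 without LiCl 4, 0 without LiCl 2, LiCl 3, UV 4 or UV 5, and 1 without LiCl 1, UV 1, UV 2 or UV 3. In LiCl the count was 1 without UV 4 or UV 5.

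Of 25 tested genes of ventral and lateral mesoderm, blood and vessels, 2 were higher in UV and none in LiCl, and the median log2 fold change was 0.05. The list leaves out the ventral genes discussed in the study, which are in the marker set. One gene was higher in LiCl without LiCl 4, and the count in UV was 1 without LiCl 1 or LiCl 3. The 2 genes were gata2 and tbx3, transcription factor genes that are also used in ventral ectoderm and are shared with the epidermal list. The gene gata2 had 341, 396, 429, 205 and 498 CPM in LiCl 1 to 5 and 1315, 1234, 1174, 2199 and 2251 CPM in UV 1 to 5. For gata2 the log2 fold change was −2.13 ± 0.27 SE (edgeR adjusted p = 0.000738). The gene gata2 overlaps another on the opposite strand. The gene tbx3 had 7.11, 9.92, 8.32, 2.39 and 12.8 CPM in LiCl 1 to 5 and 77.8, 35.9, 23.2, 155 and 159.5 CPM in UV 1 to 5, highest in UV 4 and UV 5 (log2 fold change −3.47 ± 0.60 SE, edgeR adjusted p = 0.003, call lost without LiCl 1 or LiCl 3, with an adjusted p of up to 0.0109). All 8 ventral genes of the marker set, which the study already reports from these libraries, were higher in UV. Among them, the ventral mesoderm ligand gene wnt8a had 87.6, 62.0, 37.3, 46.0 and 144 CPM in LiCl 1 to 5 and 1047, 945, 644, 584 and 629 CPM in UV 1 to 5. For wnt8a the log2 fold change was −3.35 ± 0.37 SE (edgeR adjusted p = 0.000452). The homeobox gene evx1 had 4.53, 5.82, 2.24, 1.39 and 11.4 CPM in LiCl 1 to 5 and 94.0, 76.3, 44.7, 142 and 122 CPM in UV 1 to 5. For evx1 the log2 fold change was −4.22 ± 0.54 SE (edgeR adjusted p = 0.000786). The wnt8a order within UV differed from that of evx1, since UV 1 and UV 2 were highest for wnt8a and UV 4 and UV 5 for evx1.

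Posterior genes that passed the test were higher in UV. Of 22 tested genes of posterior growth and tailbud, 8 were higher in UV and none in LiCl, although 11 members lay above 0 and 11 below and the median log2 fold change was −0.05. Without LiCl 2, LiCl 3, UV 4 or UV 5 the count was 4, and without LiCl 1, UV 1 or UV 2 it was 5. Without LiCl 4, 1 member was higher in LiCl. The zinc-finger gene sp5, a target of canonical Wnt signalling, had 11.3, 12.2, 5.06, 4.85 and 29.0 CPM in LiCl 1 to 5 and 54.0, 83.5, 109, 163 and 203 CPM in UV 1 to 5. For sp5 the log2 fold change was −3.28 ± 0.54 SE (edgeR adjusted p = 0.00245). The noncanonical ligand gene wnt5b had 59.7 ± 12.6 CPM in LiCl and 127 ± 19.5 CPM in UV (mean ± SD, n = 5) (log2 fold change −1.08 ± 0.16 SE, edgeR adjusted p = 0.00155). The other members higher in UV were cdx1, cdx2, sp8, greb1, dusp6 and lef1, at log2 fold changes from −2.80 to −1.11. The marker cdx4 had 112, 96.1, 109, 37.1 and 194 CPM in LiCl 1 to 5 and 466, 637, 344, 563 and 563 CPM in UV 1 to 5. For cdx4 the log2 fold change was −2.23 ± 0.35 SE (edgeR adjusted p = 0.00187).

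For paraxial mesoderm and somites, 1 of 23 tested genes was higher in LiCl and 2 were higher in UV, with a median log2 fold change of −0.24, and the counts were 3 and 4 without LiCl 4, 0 and 5 without LiCl 5. The count in LiCl was 0 without any other library, and the count in UV was 1 without LiCl 1. The Notch ligand gene dll1 had 140.5, 124, 128, 107 and 189.9 CPM in LiCl 1 to 5 and 351, 370.5, 301, 404 and 380.4 CPM in UV 1 to 5. For dll1 the log2 fold change was −1.39 ± 0.15 SE (edgeR adjusted p = 0.000454). Its relative dlc had 125 ± 49.8 CPM in LiCl and 448 ± 94.6 CPM in UV (mean ± SD, n = 5) (log2 fold change −1.84 ± 0.32 SE, edgeR adjusted p = 0.003, call lost without LiCl 1, with an adjusted p of up to 0.0104). The T-box gene tbx1 was the member higher in LiCl, at 51.4 ± 28.8 CPM in LiCl and 9.15 ± 2.81 CPM in UV (mean ± SD, n = 5), but was lost without any library other than LiCl 4 (edgeR adjusted p = 0.00795 with all libraries and up to 0.023). The presomitic marker msgn1 had 6.39, 5.93, 2.43, 1.00 and 23.9 CPM in LiCl 1 to 5 and 107, 127, 73.9, 182 and 170.0 CPM in UV 1 to 5. For msgn1 the log2 fold change was −4.03 ± 0.70 SE (edgeR adjusted p = 0.00305, call lost without LiCl 1 or LiCl 2, with an adjusted p of up to 0.0115). Untreated embryos were as high as UV at 125, 189, 116, 46.0 and 191 CPM in untreated 1 to 5.

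The hox genes, which mark position along the trunk, all lay lower in LiCl but few passed the test. Of 9 tested genes of paralog groups 1 to 4, 3 were higher in UV (5 without LiCl 5, and 1 without LiCl 1, LiCl 2, LiCl 3, UV 2, UV 4 or UV 5), and all 9 had a negative log2 fold change, with a median of −1.84. The gene hoxd1 had 80.3, 47.9, 52.3, 36.7 and 169 CPM in LiCl 1 to 5 and 329, 367, 315, 420.3 and 488 CPM in UV 1 to 5. For hoxd1 the log2 fold change was −2.31 ± 0.38 SE (edgeR adjusted p = 0.0024). The gene hoxb4 had 0.754 ± 0.691 CPM in LiCl and 7.07 ± 5.08 CPM in UV (mean ± SD, n = 5) (log2 fold change −3.15 ± 0.65 SE, edgeR adjusted p = 0.0079, call lost without any library except LiCl 5, UV 1 and UV 3, with an adjusted p of up to 0.0243). Of the 7 tested genes of paralog groups 5 to 13 none passed, whereas all 7 log2 fold changes were negative, with a median of −2.64, and hoxa7 had the lowest edgeR adjusted p at 0.0239. Without LiCl 5, 1 of them passed.

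The spread within the conditions was wide for these genes. Summed over the 25 genes of groups 5 to 13, the level was 4.22, 2.40, 3.78, 1.31 and 14.9 CPM in LiCl 1 to 5 and 14.9, 18.3, 7.70, 90.2 and 96.5 CPM in UV 1 to 5. In untreated embryos it was 18.5, 47.6, 11.6, 3.05 and 172 CPM. UV 4, UV 5 and untreated 5 were thus far above the rest and LiCl 5 was the highest of its group. The gene hoxa7 showed this order by itself, with 0, 0, 0.0640, 0 and 1.23 CPM in LiCl 1 to 5 and 1.67, 2.35, 0.861, 19.3 and 20.3 CPM in UV 1 to 5 and 3.10, 7.38, 0.949, 0.0516 and 27.5 CPM in untreated 1 to 5, and hoxc6 had 0, 0, 0.320, 0.0770 and 2.18 CPM in LiCl 1 to 5 and 0.834, 1.46, 0.323, 20.7 and 26.7 CPM in UV 1 to 5 (log2 fold change −4.06, edgeR adjusted p = 0.0701). What moves these genes within a condition was not tested.

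Among components of BMP signalling and its transcriptional targets, most genes that passed were higher in UV. Of 31 tested genes 9 were higher in UV and 2 in LiCl, with a median log2 fold change of −0.43. Those higher in UV include dlx3, dlx5, msx2 and gata3, which are shared with the epidermal list. Some of these also belong to the border or preplacodal lists, so the counts of these lists are not independent. The count in UV was 5 without LiCl 1, LiCl 2, UV 4 or UV 5, and the count in LiCl was 1 without any library except LiCl 4, LiCl 5 and UV 1. The ligand gene bmp4 itself had 183, 202, 219, 136 and 188 CPM in LiCl 1 to 5 and 461, 461, 420.0, 459.6 and 415 CPM in UV 1 to 5. For bmp4 the log2 fold change was −1.26 ± 0.12 SE (edgeR adjusted p = 0.0003). Untreated embryos were close to UV at 426, 410.2, 471, 346 and 395 CPM in untreated 1 to 5. Among the targets, the homeobox gene msx2 had 12.7, 17.7, 14.7, 2.85 and 21.3 CPM in LiCl 1 to 5 and 123, 143, 107, 191 and 247 CPM in UV 1 to 5. For msx2 the log2 fold change was −3.55 ± 0.45 SE (edgeR adjusted p = 0.000738). The gene dlx5 had 28.0, 19.96, 43.4, 24.3 and 106 CPM in LiCl 1 to 5 and 429.8, 450.3, 413, 607 and 652 CPM in UV 1 to 5. For dlx5 the log2 fold change was −3.52 ± 0.44 SE (edgeR adjusted p = 0.000739). The gene gata3 had 16.8 ± 5.56 CPM in LiCl and 154 ± 137 CPM in UV (mean ± SD, n = 5) (log2 fold change −3.20 ± 0.61 SE, edgeR adjusted p = 0.00533, call lost without LiCl 1, LiCl 2, LiCl 3, UV 4 or UV 5, with an adjusted p of up to 0.0179). LiCl 5 was the highest LiCl library for all 3. The feedback inhibitor genes smad7 and twsg1 and the inhibitor of bHLH factors id2 were also higher in UV, at log2 fold changes of −2.21, −1.34 and −2.14. In LiCl the type I receptor gene acvr1 had 65.1, 51.7, 45.7, 42.6 and 52.9 CPM in LiCl 1 to 5 and 25.1, 22.2, 29.4, 18.2 and 19.4 CPM in UV 1 to 5. For acvr1 the log2 fold change was 1.17 ± 0.17 SE (edgeR adjusted p = 0.00133). The ligand gene bmp3 was the other gene higher in LiCl, at 16.0 ± 9.22 CPM in LiCl and 3.44 ± 0.983 CPM in UV (mean ± SD, n = 5) (log2 fold change 2.22 ± 0.43 SE, edgeR adjusted p = 0.00581, call lost without any library except LiCl 4 and LiCl 5, with an adjusted p of up to 0.0163).

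The Wnt list showed genes of both directions. Of 44 tested genes, 3 were higher in LiCl (1 without UV 1, 6 without LiCl 4) and 8 in UV, with a median log2 fold change of 0.12. The genes higher in LiCl were the antagonist genes frzb2 and dkkx and the transcriptional repressor gene tcf7l1. The gene tcf7l1 was abundant, with 1031, 699.5, 1084, 803 and 915 CPM in LiCl 1 to 5 and 360.3, 379.9, 637, 479.7 and 398 CPM in UV 1 to 5. For tcf7l1 the log2 fold change was 1.01 ± 0.18 SE (edgeR adjusted p = 0.0032, call lost without LiCl 1, LiCl 3, UV 1, UV 2 or UV 5, with an adjusted p of up to 0.0116). Of the receptors, fzd6 had 5.56, 4.45, 3.39, 2.93 and 12.9 CPM in LiCl 1 to 5 and 36.7, 45.1, 36.4, 114 and 105 CPM in UV 1 to 5. For fzd6 the log2 fold change was −3.51 ± 0.51 SE (edgeR adjusted p = 0.00135). The gene fzd10 had 39.4, 33.3, 37.5, 29.0 and 89.6 CPM in LiCl 1 to 5 and 196, 214, 222, 396 and 430.4 CPM in UV 1 to 5. For fzd10 the log2 fold change was −2.67 ± 0.36 SE (edgeR adjusted p = 0.00102). The gene fzd3 was lower in LiCl by less (log2 fold change −1.27, call lost without LiCl 1, LiCl 2, LiCl 3, UV 2, UV 4 or UV 5, with an adjusted p of up to 0.0238). In contrast the marker receptor gene fzd8 had 195, 162, 193, 178 and 136 CPM in LiCl 1 to 5 and 31.6, 37.4, 49.7, 22.2 and 21.2 CPM in UV 1 to 5 and was higher in LiCl (log2 fold change 2.41 ± 0.23 SE, edgeR adjusted p = 0.0003). The intracellular transducer gene dvl3 had 31.5, 34.2, 29.0, 55.7 and 42.8 CPM in LiCl 1 to 5 and 111, 129, 68.7, 169 and 162 CPM in UV 1 to 5. For dvl3 the log2 fold change was −1.73 ± 0.26 SE (edgeR adjusted p = 0.00152). The other members higher in UV were sp5, wnt5b, lef1 and myc. The receptor genes fzd3, fzd6 and fzd10 thus lay on the ventral side of the comparison and fzd8 on the dorsal side, each without overlap between conditions.

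The other signalling lists were small, and their shares past the threshold are to be read against 5.57% of all genes tested. The share was 5% for Nodal and activin, 8% for FGF and 0% for retinoic acid. It was higher for Notch, at 19%, and hedgehog, at 13.3%. In the Nodal and activin list 1 of 20 tested genes was higher in LiCl (none without UV 2 or UV 5, 2 without UV 3) and none in UV (1 without LiCl 4 or UV 2). The gene was tdgf1p3, of the EGF-CFC family of Nodal coreceptors, with 10.6, 10.5, 12.1, 30.6 and 9.96 CPM in LiCl 1 to 5 and 2.85, 1.46, 4.25, 1.02 and 1.21 CPM in UV 1 to 5. For tdgf1p3 the log2 fold change was 2.75 ± 0.48 SE (edgeR adjusted p = 0.00311, call lost without UV 2 or UV 5, with an adjusted p of up to 0.0107). In the FGF list 1 of 25 was higher in LiCl, fgf16, and 1 in UV, the feedback phosphatase gene dusp6, which had 86.3 ± 20.9 CPM in LiCl and 186 ± 23.6 CPM in UV (mean ± SD, n = 5) (log2 fold change −1.11 ± 0.18 SE, edgeR adjusted p = 0.00246). Without LiCl 4 dusp6 had a log2 fold change of −0.98 and no longer reached 2-fold, and fgf16 at 4.84 ± 0.876 CPM in LiCl and 1.98 ± 0.305 CPM in UV (mean ± SD, n = 5) lost its call without LiCl 1, UV 3, UV 4 or UV 5 (edgeR adjusted p up to 0.013).

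In the retinoic acid pathway none of 18 tested genes passed in either direction, and 3 were higher in LiCl without LiCl 4 and 1 without UV 3. Its most abundant members were the degrading enzyme gene cyp26a1, with 857 ± 299.9 CPM in LiCl and 492 ± 60.5 CPM in UV (mean ± SD, n = 5) and a log2 fold change of 0.80 (edgeR adjusted p = 0.0407), and the synthesising enzyme gene aldh1a2, with 638 ± 108 CPM in LiCl and 435 ± 111 CPM in UV (mean ± SD, n = 5) and 0.55 (adjusted p = 0.0655). The Notch list had 2 of 21 genes higher in each condition, hes7.1 and numbl in LiCl and dll1 and dlc in UV, the latter being ligand genes. The count in UV was 5 without LiCl 5, 4 without LiCl 4 and 1 without LiCl 1, and the count in LiCl was 1 without any library except LiCl 4 and UV 1. In the hedgehog list 1 of 15 genes was higher in each condition, shh in LiCl and gas1, which encodes a membrane coreceptor, in UV. The count in LiCl was 2 without LiCl 4, 1 without UV 3 and 0 without any other library. The gene gas1 had 43.9, 39.4, 49.7, 40.1 and 59.2 CPM in LiCl 1 to 5 and 109, 138, 137, 129.8 and 118 CPM in UV 1 to 5. For gas1 the log2 fold change was −1.44 ± 0.14 SE (edgeR adjusted p = 0.000262).

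In the ectoderm, most neural genes lay towards LiCl, but the summed level of their list did not separate the treatments. Over its 82 genes the sum was 4257 to 6037 CPM in LiCl and 4163 to 5560 CPM in UV. Untreated embryos reached the highest sums, from 5031 to 7004 CPM. Of 58 tested neural plate and early brain regulators, 9 were higher in LiCl and 2 in UV, 42 had a positive log2 fold change and the median was 0.52. The LiCl count was 4 or 5 without LiCl 1, LiCl 2, LiCl 3, UV 2, UV 4 or UV 5, and 12 without LiCl 4. The UV count was 4 without LiCl 5 and 1 without any other library. The gene foxd4l1.2, a forkhead gene of the early neural ectoderm, had 13.3, 16.6, 15.2, 8.86 and 29.4 CPM in LiCl 1 to 5 and 0.278, 0.568, 2.48, 1.02 and 0.603 CPM in UV 1 to 5. For foxd4l1.2 the log2 fold change was 4.02 ± 0.54 SE (edgeR adjusted p = 0.00103). Untreated embryos had 4.89, 5.20, 4.46, 4.13 and 11.2 CPM in untreated 1 to 5. The gene foxd4l1.2 lies next to its paralogue foxd4l1.1 on scaffold 1 and the 2 genes may share reads. The gene nova1, which encodes a neuronal splicing factor, had 7.73, 13, 14.9, 1.54 and 10.5 CPM in LiCl 1 to 5 and 0.417, 0.0811, 0.592, 0.422 and 0.516 CPM in UV 1 to 5. For nova1 the log2 fold change was 4.50 ± 0.61 SE (edgeR adjusted p = 0.00103). The eye field gene rax had a log2 fold change of 2.88. The forebrain gene fezf2 had 2.06, 2.85, 5.12, 1.31 and 0.895 CPM in LiCl 1 to 5 and 0.0695, 0.0811, 0.430, 0.0602 and 0.516 CPM in UV 1 to 5, with the call lost without any library except LiCl 4, LiCl 5 and UV 3, with an adjusted p of up to 0.0209. Untreated embryos had 6.50, 7.06, 2.94, 2.58 and 44.7 CPM in untreated 1 to 5, with untreated 5 far above the other 4, which overlapped with LiCl. The proneural gene neurog3 had 12.3 ± 10.0 CPM in LiCl and 1.52 ± 1.25 CPM in UV (mean ± SD, n = 5) (log2 fold change 3.01 ± 0.61 SE, edgeR adjusted p = 0.00724, call lost without any library except LiCl 4, LiCl 5 and UV 4, with an adjusted p of up to 0.0226), with LiCl 4 above all other libraries. Its relative neurog2 went the other way, with 7.098 ± 4.23 CPM in LiCl and 26.6 ± 11.4 CPM in UV (mean ± SD, n = 5) (log2 fold change −1.90 ± 0.38 SE, edgeR adjusted p = 0.00739), and that call was lost without any library except LiCl 5 (adjusted p up to 0.0223). The second gene higher in UV was the zinc-finger gene znf703, with 238, 154, 106, 103 and 366 CPM in LiCl 1 to 5 and 716, 729, 618, 826 and 940.1 CPM in UV 1 to 5. For znf703 the log2 fold change was −1.99 ± 0.33 SE (edgeR adjusted p = 0.0026).

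At the neural border the genes divided. Of 24 tested neural crest and border genes, 3 were higher in LiCl (1 without UV 4, 5 without LiCl 4) and 5 in UV (8 without LiCl 5), with a median log2 fold change of −0.17. Those higher in LiCl included the crest forkhead gene foxd3, with 122, 100.5, 107, 53.2 and 101 CPM in LiCl 1 to 5 and 9.66, 22.2, 27.4, 9.40 and 23.4 CPM in UV 1 to 5. For foxd3 the log2 fold change was 2.39 ± 0.34 SE (edgeR adjusted p = 0.00129). The other genes were the AP-2 gene tfap2e, at 19.1 ± 5.88 CPM in LiCl and 7.14 ± 1.28 CPM in UV (mean ± SD, n = 5) (log2 fold change 1.41 ± 0.24 SE, edgeR adjusted p = 0.00288, call lost without UV 4, with an adjusted p of up to 0.0108), and mycn, at 27.0 ± 6.59 CPM in LiCl and 12.2 ± 2.10 CPM in UV (mean ± SD, n = 5) (log2 fold change 1.15 ± 0.20 SE, edgeR adjusted p = 0.00311, call lost without UV 4 or UV 5, with an adjusted p of up to 0.0116). In UV they were msx2, dlx5, znf703, sp5 and myc. The MYC family members mycn and myc lay on opposite sides, and the log2 fold change of myc was −1.60. Of 12 tested genes of preplacodal ectoderm and cement gland 2 were higher in LiCl (4 without LiCl 4, 1 without UV 4) and 3 in UV (1 without LiCl 1 or LiCl 3). One of the latter was ag1, a secreted protein gene of the cement gland, with 22.9, 7.64, 22.7, 12.01 and 113 CPM in LiCl 1 to 5 and 404, 384, 384, 786 and 877 CPM in UV 1 to 5 and 635, 417, 468, 352 and 754 CPM in untreated 1 to 5. The gene ag1 lay lower in all LiCl libraries than in any other (log2 fold change −3.98 ± 0.70 SE, edgeR adjusted p = 0.00342, call lost without LiCl 1 or LiCl 3, with an adjusted p of up to 0.0127). The study describes a circular cement gland in hyperdorsalised embryos at the tailbud stage, which is later than the stage sampled here. The other members higher in UV were dlx3 and dlx5, which are shared with the BMP and epidermal lists.

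The epidermal regulators were the list with the highest share of members past the threshold. Of 36 tested genes of epidermis and other non-neural ectoderm, 18 were higher in UV and 1 in LiCl, 28 had a negative log2 fold change and the median was −1.27. The UV count was between 9 and 11 without LiCl 1, LiCl 2, LiCl 3, UV 4 or UV 5, and 17 without LiCl 4. The LiCl count was 2 without LiCl 4 or UV 3 and 0 without UV 4. The gene tfap2c, an AP-2 factor gene, was among the most abundant genes higher in UV, with 262, 285, 374, 478 and 626 CPM in LiCl 1 to 5 and 1804, 2058, 2040, 2871 and 2892 CPM in UV 1 to 5. For tfap2c the log2 fold change was −2.53 ± 0.25 SE (edgeR adjusted p = 0.000319). Untreated embryos lay between at 1456, 1255, 1639, 1140 and 2029 CPM in untreated 1 to 5. The gene tp63, a regulator of stratified epithelium, had 0.515, 0.114, 0.0640, 0.462 and 0.895 CPM in LiCl 1 to 5 and 4.86, 3.08, 2.80, 27.1 and 28.5 CPM in UV 1 to 5. For tp63 the log2 fold change was −4.92 ± 0.90 SE (edgeR adjusted p = 0.00422, call lost without LiCl 1, LiCl 2, LiCl 3, UV 4 or UV 5, with an adjusted p of up to 0.0141). UV 4 and UV 5 were far above UV 1 to UV 3, whose values resembled those of untreated embryos, 3.04, 2.50, 2.28, 0.877 and 4.23 CPM in untreated 1 to 5. The distal-less genes dlx3, dlx5 and dlx6, the GATA genes gata2 and gata3, the Krüppel-like genes klf2, klf3, klf5 and klf17, grhl1, foxi4.1, elf1, zfp36 and esrp1, which encodes an epithelial splicing regulator, were all higher in UV, at log2 fold changes from −3.92 to −1.20. The member higher in LiCl was tfap2e, so that 2 AP-2 genes, tfap2c and tfap2e, differed in direction.

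**Figure D4:**
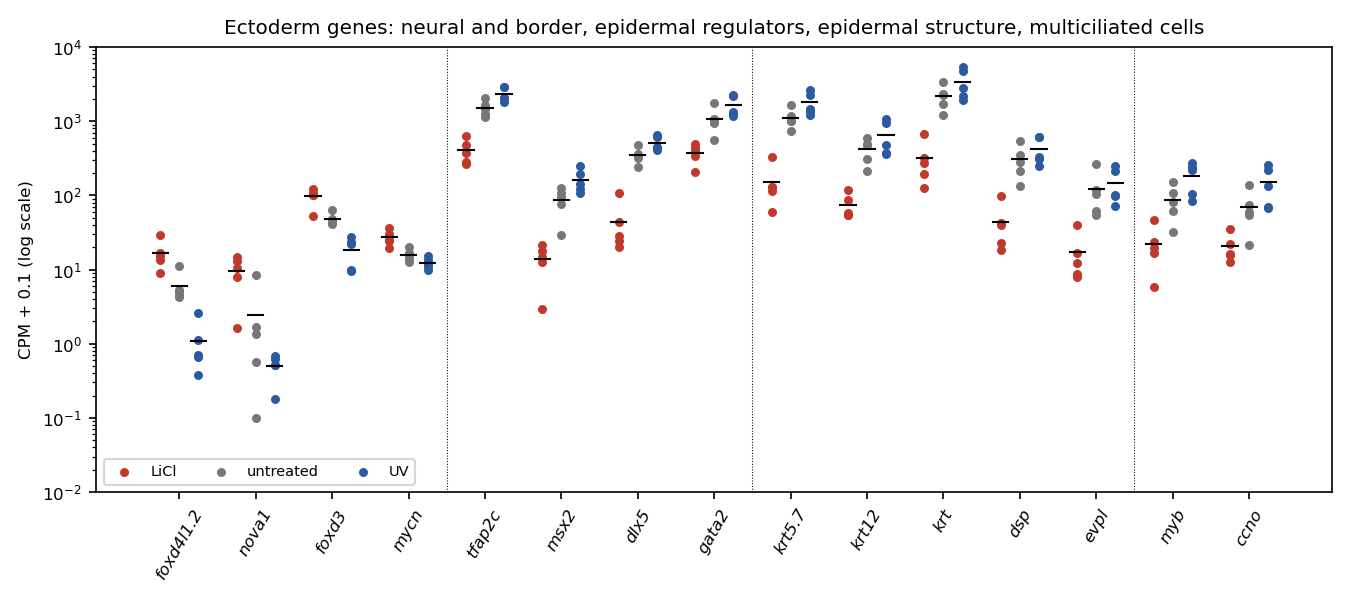
CPM + 0.1 on a log axis for 15 ectoderm genes, 1 point per library, with a bar at the mean of each condition (LiCl red, untreated grey, UV blue). The neural and border genes chosen for the left (foxd4l1.2, nova1, foxd3 and mycn) are highest in LiCl. Of the 24 tested border genes, however, 3 were higher in LiCl and 5 in UV. The border list members msx2 and dlx5 are drawn with the epidermal genes. These lie to the right and are highest in UV, with untreated means between the treatments. The 2 multiciliated cell genes stand at the right.

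Structural genes of the epithelium lay mostly towards UV. Of 48 tested genes 36 had a negative log2 fold change, 13 were higher in UV and 1 in LiCl, with a median log2 fold change of −0.46, and the UV count was 8 without LiCl 1, LiCl 2 or UV 4. The LiCl count was 2 without LiCl 4. The desmosome gene dsp had 42.8, 22.9, 39.4, 17.9 and 97.1 CPM in LiCl 1 to 5 and 327, 307, 250.4, 611 and 613 CPM in UV 1 to 5. For dsp the log2 fold change was −3.25 ± 0.47 SE (edgeR adjusted p = 0.00133). The plakin gene evpl had 16.7, 8.55, 7.88, 12.2 and 39.8 CPM in LiCl 1 to 5 and 97.2, 101, 72.1, 211 and 245 CPM in UV 1 to 5. For evpl the log2 fold change was −3.08 ± 0.51 SE (edgeR adjusted p = 0.00262). Its partner ppl had a log2 fold change of −1.90. The junction genes cdh1 and jup, the claudin genes cldn4 and cldn23 and the uroplakin genes upk1b, upk3a and upk3b were also higher in UV, at log2 fold changes from −2.51 to −1.04. The member higher in LiCl was gjb2, a gap junction gene, with 865, 886, 990.2, 139 and 763 CPM in LiCl 1 to 5 and 75.0, 116, 80.5, 61.3 and 97.0 CPM in UV 1 to 5. For gjb2 the log2 fold change was 3.09 ± 0.43 SE (edgeR adjusted p = 0.00121). LiCl 4 was the lowest LiCl library for gjb2 and lay at the level of the lowest untreated library, untreated 4 at 138 CPM, while untreated 5 reached 602 CPM.

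Of 9 tested keratins, 4 were higher in UV and none in LiCl (1 without LiCl 4), with a median log2 fold change of −1.32. The gene krt5.7 had 131, 115, 128, 60.2 and 329.5 CPM in LiCl 1 to 5 and 1437, 1359, 1225, 2269 and 2649 CPM in UV 1 to 5. For krt5.7 the log2 fold change was −3.55 ± 0.43 SE (edgeR adjusted p = 0.000695). LiCl 4 was the lowest LiCl library for krt5.7 and LiCl 5 the highest. The gene krt12 had 87.8, 54.5, 53.6, 56.9 and 119 CPM in LiCl 1 to 5 and 373, 471, 362, 940.4 and 1086 CPM in UV 1 to 5. For krt12 the log2 fold change was −3.12 ± 0.38 SE (edgeR adjusted p = 0.000702). The gene krt8 differed by less, at 276 ± 87.5 CPM in LiCl and 687 ± 220.3 CPM in UV (mean ± SD, n = 5) (log2 fold change −1.32, call lost without any library except LiCl 4 and UV 1, with an adjusted p of up to 0.0277). A further keratin listed only as krt was the most abundant gene higher in UV, with 321, 127, 192, 269 and 667 CPM in LiCl 1 to 5 and 2158, 2833, 1957, 4704 and 5305 CPM in UV 1 to 5. For krt the log2 fold change was −3.43 ± 0.47 SE (edgeR adjusted p = 0.00104). The genes krt5.7, krt8 and krt16 overlap genes on the opposite strand. The gene krt is not a member of the list, so the count above and the summed level both leave it out. The summed level of the 24 keratin genes in the list was 1056 to 2409 CPM in LiCl and 3914 to 7504 CPM in UV, without overlap. In untreated embryos it was 2413 to 6157 CPM.

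Of 31 tested genes of ionocytes and multiciliated cells, the scattered cell types of larval frog skin, 2 were higher in UV and 1 in LiCl, with a median log2 fold change of −0.38. In UV the count was 7 without LiCl 4, 5 without LiCl 5 and 8 without UV 3, and in LiCl it was 2 without LiCl 4. The 2 genes were ccno and myb, which act in the multiplication of centrioles and the programme of multiciliated cells. The gene ccno had 21.7, 15.6, 12.6, 16.3 and 35.5 CPM in LiCl 1 to 5 and 67.1, 132, 69.0, 258 and 223 CPM in UV 1 to 5. For ccno the log2 fold change was −2.87 ± 0.44 SE (edgeR adjusted p = 0.00167). The gene myb had 23.4, 19.2, 16.5, 5.78 and 46.4 CPM in LiCl 1 to 5 and 105, 219, 84.6, 269 and 245 CPM in UV 1 to 5. For myb the log2 fold change was −3.05 ± 0.51 SE (edgeR adjusted p = 0.00265). The gene myb overlaps another on the opposite strand. For both, UV 4 was the highest UV library and UV 1 and UV 3 were the lowest. The gene higher in LiCl was slc4a1, an anion exchanger gene, with 30.0, 107, 74.5, 19.0 and 34.5 CPM in LiCl 1 to 5 and 6.88, 6.57, 5.06, 6.39 and 6.20 CPM in UV 1 to 5. For slc4a1 the log2 fold change was 3.09 ± 0.43 SE (edgeR adjusted p = 0.00124). Untreated embryos were as low as UV at 6.74, 6.03, 6.74, 7.38 and 11.1 CPM in untreated 1 to 5. The proton pump subunit gene atp6v0a4, used in acid-secreting cells and not a member of the list, had 0, 0.114, 0.0640, 0 and 0.336 CPM in LiCl 1 to 5 and 2.36, 3.73, 0.861, 6.51 and 9.90 CPM in UV 1 to 5.

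Cadherin-family genes passed the threshold at both ends of the axis. Of 29 tested cadherin, protocadherin, ephrin and Eph receptor genes 4 were higher in LiCl (7 without LiCl 4) and 1 in UV (2 without LiCl 4, 3 without LiCl 5), with a median log2 fold change of 0.15. The epithelial cadherin gene cdh1 had 45.4, 24.5, 27.9, 19.6 and 30.2 CPM in LiCl 1 to 5 and 98.7, 82.7, 66.9, 132 and 148 CPM in UV 1 to 5. For cdh1 the log2 fold change was −1.84 ± 0.27 SE (edgeR adjusted p = 0.00133). The type II cadherin gene cdh11, associated with mesenchymal and neural crest cells, had 148, 124, 127, 17.1 and 114 CPM in LiCl 1 to 5 and 15.5, 22.8, 14.6, 10.7 and 11.5 CPM in UV 1 to 5. For cdh11 the log2 fold change was 2.82 ± 0.47 SE (edgeR adjusted p = 0.00259). LiCl 4 lay within the UV range of cdh11 while the other 4 LiCl libraries lay far above it. The gene cdh12 had 5.36, 17.7, 12.4, 3.85 and 6.38 CPM in LiCl 1 to 5 and 1.18, 1.05, 0.753, 0.723 and 0.172 CPM in UV 1 to 5. For cdh12 the log2 fold change was 3.52 ± 0.53 SE (edgeR adjusted p = 0.00152). The gene cdh6 had 2.11 ± 1.04 CPM in LiCl and 0.265 ± 0.174 CPM in UV (mean ± SD, n = 5), with the call lost without UV 4 or UV 5, with an adjusted p of up to 0.0114, and pcdh12 had 1.34, 3.42, 5.76, 2.85 and 2.74 CPM in LiCl 1 to 5 and 0.556, 0.162, 0.484, 0.361 and 0.603 CPM in UV 1 to 5. The members higher in LiCl were cadherin-family genes, but cdh6 and pcdh12 passed the count minimum only through LiCl. No ephrin or Eph receptor gene in the list passed. The families within the list were not compared.

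Matrix genes that passed the threshold were higher in LiCl. Of 55 tested matrix and integrin genes, 7 were higher in LiCl and none in UV, 37 had a positive log2 fold change and the median was 0.42. The count depended on single libraries. It was 16 in LiCl and 1 in UV without LiCl 4, between 2 and 4 in LiCl without LiCl 3, UV 1, UV 3, UV 4 or UV 5, and 1 in UV without LiCl 5. The laminin gene lama4 had 29.8, 38.2, 43.2, 7.01 and 9.74 CPM in LiCl 1 to 5 and 0.973, 3.00, 2.42, 1.21 and 0.775 CPM in UV 1 to 5. For lama4 the log2 fold change was 3.92 ± 0.59 SE (edgeR adjusted p = 0.00163). The fibrillin gene fbn1 had 13.1, 49.4, 32.1, 5.39 and 4.76 CPM in LiCl 1 to 5 and 1.11, 1.95, 1.45, 0.904 and 0.775 CPM in UV 1 to 5. For fbn1 the log2 fold change was 4.07 ± 0.68 SE (edgeR adjusted p = 0.00271, call lost without UV 4 or UV 5, with an adjusted p of up to 0.0104). The gene lama1 had 115, 132, 151, 7.86 and 158 CPM in LiCl 1 to 5 and 6.88, 19.0, 15.5, 18.4 and 15.3 CPM in UV 1 to 5. For lama1 the log2 fold change was 2.91 ± 0.60 SE (edgeR adjusted p = 0.00829). The gene lama1 was low in LiCl 4 alone among the LiCl libraries and in untreated 4 alone among the untreated libraries (4.34 CPM), and its call was lost without any library except LiCl 4 (adjusted p up to 0.0248). The other members were the fibrillin gene fbn3, sparc, col4a2 of basement membrane collagen and the proteoglycan gene vcan. The log2 fold changes of the last 3 were 2.13, 1.84 and 1.70. The summed level of all 126 matrix genes was 4434 to 4792 CPM in 4 LiCl libraries, 2145 CPM in LiCl 4 and 3070 to 3466 CPM in UV, and it ranged from 2654 (untreated 4) to 5614 CPM (untreated 5) in untreated embryos.

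Of 50 tested proteases and inhibitors of matrix and membrane, 2 were higher in LiCl (9 without LiCl 4, 1 without any other library except LiCl 5 and UV 2) and 1 in UV, with a median log2 fold change of 0.56 and 38 members above 0. The share past the threshold, 6%, was near the 5.57% of all genes tested. The collagenase gene mmp1 had 198, 315, 223, 150.3 and 233 CPM in LiCl 1 to 5 and 26.0, 43.4, 26.8, 20.1 and 24.6 CPM in UV 1 to 5. For mmp1 the log2 fold change was 2.99 ± 0.24 SE (edgeR adjusted p = 0.00015). Untreated embryos stood nearer to UV at 39.5, 52.8, 45.3, 63.1 and 73.1 CPM in untreated 1 to 5. The gene adamts18 was the other gene higher in LiCl, at 7.69 ± 3.17 CPM in LiCl and 2.02 ± 0.668 CPM in UV (mean ± SD, n = 5), with the call lost without any library except LiCl 4 and UV 2, with an adjusted p of up to 0.0186. The epithelial serine protease gene prss8 was higher in UV at 24.3 ± 8.38 CPM in LiCl and 74.1 ± 30.4 CPM in UV (mean ± SD, n = 5), with the call lost without LiCl 1, LiCl 2, LiCl 3, LiCl 5, UV 4 or UV 5, with an adjusted p of up to 0.0199. It overlaps a gene on the opposite strand, as do lama1, frzb2 and gadd45a. In the list of planar polarity and convergent extension 1 of 37 tested genes was higher in LiCl (4 without LiCl 4) and 4 in UV, with a median log2 fold change of 0.04. The secreted kinase gene pkdcc.2 had 141, 93.3, 106, 53.3 and 84.2 CPM in LiCl 1 to 5 and 19.3, 29.4, 26.6, 8.79 and 15.1 CPM in UV 1 to 5. For pkdcc.2 the log2 fold change was 2.27 ± 0.34 SE (edgeR adjusted p = 0.0015). The genes higher in UV were dvl3, fzd3, fzd6 and wnt5b.

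**Figure D5:**
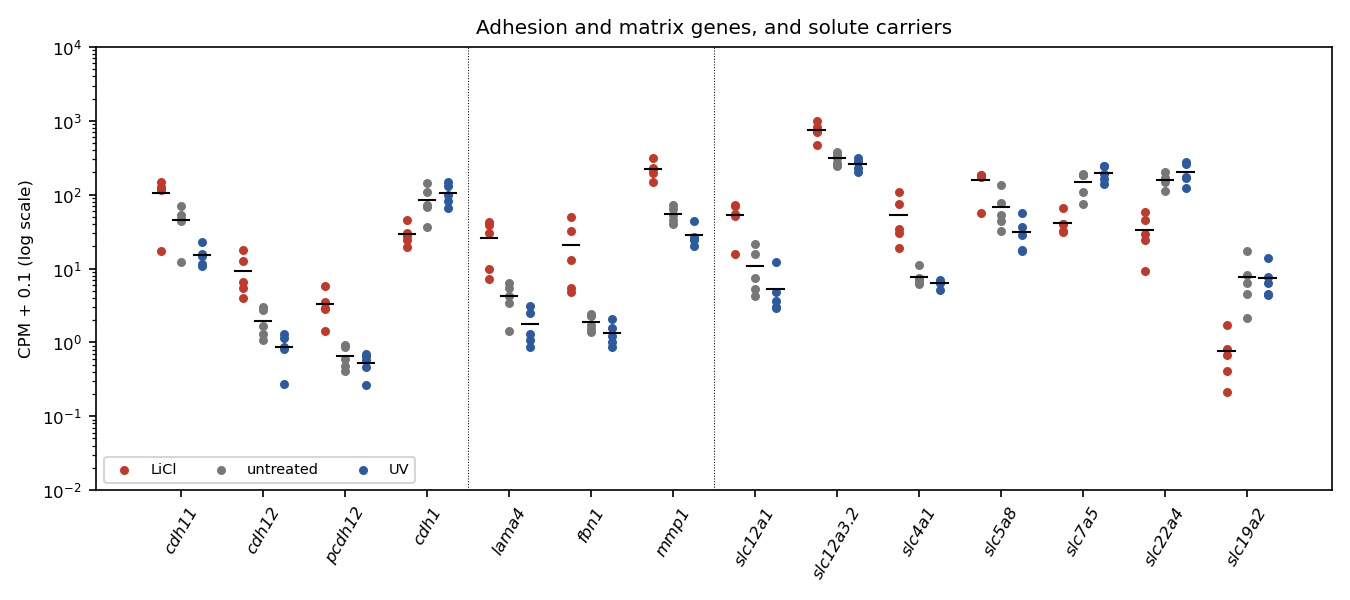
CPM + 0.1 on a log axis for 4 cadherin-family genes, 3 matrix genes and 7 solute carriers, 1 point per library, with a bar at the mean of each condition (LiCl red, untreated grey, UV blue). cdh1 is the only cadherin shown that is highest in UV, LiCl 4 stands below the other LiCl libraries for cdh11, and untreated values of slc4a1 lie with those of UV.

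Genes of membrane transport passed in both directions. Of 174 tested solute carriers, 12 were higher in LiCl (19 without LiCl 4) and 7 in UV, with a median log2 fold change of 0.04. Those higher in LiCl included the sodium, potassium and chloride cotransporter gene slc12a1, with 71.6, 54.9, 51.4, 15.8 and 70.6 CPM in LiCl 1 to 5 and 2.92, 3.57, 2.80, 4.70 and 12.2 CPM in UV 1 to 5. For slc12a1 the log2 fold change was 3.35 ± 0.51 SE (edgeR adjusted p = 0.00166). Its relative slc12a3.2 had 1003, 838, 731, 471 and 702 CPM in LiCl 1 to 5 and 279, 311, 281, 200.4 and 228 CPM in UV 1 to 5. For slc12a3.2 the log2 fold change was 1.53 ± 0.19 SE (edgeR adjusted p = 0.000738). The gene slc12a3.2 was among the 5 most abundant genes higher in LiCl, and untreated embryos were near UV at 373, 314, 266, 347 and 245 CPM in untreated 1 to 5. The other members higher in LiCl were slc4a1, slc5a8, slc16a9, slc38a3, slc13a3, slc3a1, slc43a2, slc23a2, slc24a6 and slc29a2, at log2 fold changes from 1.20 to 3.09. Those higher in UV included slc7a5, which carries large neutral amino acids, with 39.6, 32.2, 31.1, 66.2 and 40.2 CPM in LiCl 1 to 5 and 247, 189.8, 241, 164 and 142 CPM in UV 1 to 5. For slc7a5 the log2 fold change was −2.23 ± 0.24 SE (edgeR adjusted p = 0.0004). The organic cation transporter family gene slc22a4 had 44.8, 9.24, 24.5, 29.2 and 57.8 CPM in LiCl 1 to 5 and 123, 174, 166, 259.5 and 280.1 CPM in UV 1 to 5. For slc22a4 the log2 fold change was −2.59 ± 0.42 SE (edgeR adjusted p = 0.00229). The thiamine transporter gene slc19a2 had 0.721, 0.114, 0.576, 0.308 and 1.62 CPM in LiCl 1 to 5 and 4.31, 6.25, 4.36, 7.59 and 13.9 CPM in UV 1 to 5. For slc19a2 the log2 fold change was −3.35 ± 0.56 SE (edgeR adjusted p = 0.00266). Within UV, slc7a5 was lowest in UV 4 and UV 5, unlike the epidermal genes.

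Of 88 tested oxidoreductases and conjugating enzymes 3 were higher in LiCl (8 without LiCl 4, none without UV 4, and 1 without LiCl 2, LiCl 3, UV 2 or UV 5) and 2 in UV. The share past the threshold, 5.68%, was near the 5.57% of all genes tested, and the median log2 fold change was 0.03. The list as a whole thus did not stand out, and its members are described singly. The glucuronosyltransferase-family gene ugt3a2 had 17.8, 18.6, 13.1, 16.4 and 73.2 CPM in LiCl 1 to 5 and 187, 439, 223, 438 and 518 CPM in UV 1 to 5. For ugt3a2 the log2 fold change was −3.69 ± 0.53 SE (edgeR adjusted p = 0.00133). The folate enzyme gene aldh1l1 had 18.3, 9.81, 16.2, 3.54 and 29.6 CPM in LiCl 1 to 5 and 112, 129.7, 101, 168 and 193 CPM in UV 1 to 5. For aldh1l1 the log2 fold change was −3.18 ± 0.45 SE (edgeR adjusted p = 0.00129). Those higher in LiCl included akr1c1 and fmo2, both below 1 CPM in every UV library. The gene akr1c1 had 22.1, 6.16, 51.9, 11.5 and 1.96 CPM in LiCl 1 to 5 and 0.764, 0.649, 0.0538, 0.241 and 0.172 CPM in UV 1 to 5. For akr1c1 the log2 fold change was 5.65 ± 0.94 SE (edgeR adjusted p = 0.00262, call lost without UV 4, with an adjusted p of up to 0.0102). The gene fmo2 had 2.06, 29.5, 12.9, 6.32 and 1.34 CPM in LiCl 1 to 5 and 0.764, 0, 0.108, 0.181 and 0.258 CPM in UV 1 to 5. For fmo2 the log2 fold change was 5.26 ± 1.00 SE (edgeR adjusted p = 0.00534, call lost without LiCl 2, LiCl 3, UV 2, UV 3, UV 4 or UV 5, with an adjusted p of up to 0.0192).

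General cell functions showed little difference. Of 62 tested cyclin, cyclin-dependent kinase and CDC genes 2 were higher in each condition. The LiCl count was 1 without any library except LiCl 4, LiCl 5 and UV 5. The UV count was 4 without LiCl 4 or LiCl 5 and 1 without any other library except UV 1. In the list of p53 response and DNA damage, 1 of 28 tested genes was higher in UV (2 without LiCl 4) and none in LiCl (1 without LiCl 4), with a median log2 fold change of 0.18. This gene, the growth arrest gene gadd45a, had 327, 227, 222, 292 and 366 CPM in LiCl 1 to 5 and 736, 733, 501, 654 and 694 CPM in UV 1 to 5. For gadd45a the log2 fold change was −1.21 ± 0.16 SE (edgeR adjusted p = 0.00103). The summed level of the list's 30 genes was 2016 to 5076 CPM in LiCl, 2712 to 5448 CPM in UV and 2490 to 3242 CPM in untreated embryos, so the treated groups overlapped. None of 75 tested cytosolic ribosomal protein genes passed, but 71 of them lay below 0, with a median log2 fold change of −0.20 (−0.10 without LiCl 4). LiCl 4 had the lowest ribosomal sum, 13850 CPM against 20140 to 23950 CPM in the other LiCl libraries and 20290 to 25970 CPM in UV.

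Of the 25 maternal and egg genes none passed, with a median log2 fold change of 0.06, and 2 were higher in UV without LiCl 4. The vegetal T-box gene vegt, whose messenger is stored in the egg, had 1045, 785, 443, 1390 and 1044 CPM in LiCl 1 to 5 and 2026, 1842, 1670, 1651 and 1695 CPM in UV 1 to 5 and a log2 fold change of −0.92 without passing (edgeR adjusted p = 0.0241). Of 15 tested germ plasm genes, 2 were higher in LiCl (1 without any library except LiCl 4, LiCl 5, UV 2 and UV 3) and 1 in UV. The RNA helicase gene ddx25 had 60.2, 113, 104, 88.8 and 75.8 CPM in LiCl 1 to 5 and 29.6, 34.5, 22.4, 30.2 and 24.0 CPM in UV 1 to 5. For ddx25 the log2 fold change was 1.65 ± 0.19 SE (edgeR adjusted p = 0.000563). The gene dazl had 76.1 ± 20.8 CPM in LiCl and 33.6 ± 9.29 CPM in UV (mean ± SD, n = 5) (log2 fold change 1.18 ± 0.23 SE, edgeR adjusted p = 0.00549, call lost without LiCl 1, LiCl 2, LiCl 3, UV 1, UV 4 or UV 5, with an adjusted p of up to 0.0176), and the Tudor domain gene tdrd7 had 30.5, 59.9, 51.8, 41.7 and 33.8 CPM in LiCl 1 to 5 and 112, 121, 76.7, 118 and 108 CPM in UV 1 to 5. For tdrd7 the log2 fold change was −1.30 ± 0.20 SE (edgeR adjusted p = 0.00172). Untreated embryos were near LiCl for dazl (mean 66.0 CPM) and near UV for tdrd7 (mean 109 CPM).

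Several of the largest differences concerned genes outside the lists. At the LiCl end these included fap, which encodes a membrane serine protease, with 4.74, 17.9, 14.7, 3.70 and 1.57 CPM in LiCl 1 to 5 and 0.278, 0.0811, 0.108, 0.181 and 0 CPM in UV 1 to 5. The surfactant protein gene sftpa had 2.16, 8.33, 5.44, 13.4 and 2.69 CPM in LiCl 1 to 5 and 0.139, 0, 0.269, 0.120 and 0.0861 CPM in UV 1 to 5. The gene frmd3 had 5.36, 15.2, 8.90, 4.08 and 0.783 CPM in LiCl 1 to 5 and 0.208, 0.324, 0.646, 0.241 and 0.172 CPM in UV 1 to 5. For frmd3 the log2 fold change was 4.33 ± 0.72 SE (edgeR adjusted p = 0.0026). Untreated embryos were below 1 CPM for all 3 genes. The gene fap overlaps a gene on the opposite strand. The most abundant gene higher in LiCl was lrig3, a leucine-rich repeat membrane protein gene, with 1454, 1164, 1352, 788 and 1418 CPM in LiCl 1 to 5 and 328, 380.4, 555, 178 and 287 CPM in UV 1 to 5. For lrig3 the log2 fold change was 1.84 ± 0.27 SE (edgeR adjusted p = 0.0015). The abundant zinc-finger gene znf527 had 467, 573, 546, 714 and 540.4 CPM in LiCl 1 to 5 and 318, 306, 219, 221 and 243 CPM in UV 1 to 5. For znf527 the log2 fold change was 1.12 ± 0.15 SE (edgeR adjusted p = 0.000914). At the UV end, faah.2, of the fatty acid amide hydrolase family, had 0.103, 0.570, 1.99, 0.308 and 3.08 CPM in LiCl 1 to 5 and 18.6, 22.1, 21.5, 56.0 and 54.8 CPM in UV 1 to 5. For faah.2 the log2 fold change was −4.72 ± 0.70 SE (edgeR adjusted p = 0.00145). The epithelial vesicle GTPase gene rab25 had 1.20 ± 1.02 CPM in LiCl and 27.6 ± 26.1 CPM in UV (mean ± SD, n = 5) (log2 fold change −4.44 ± 0.82 SE, edgeR adjusted p = 0.00439, call lost without LiCl 1, LiCl 2, LiCl 3, UV 4 or UV 5, with an adjusted p of up to 0.0154), cthrc1 had 0.0808 ± 0.0922 CPM in LiCl and 2.73 ± 1.85 CPM in UV (mean ± SD, n = 5) and dynlt3, a dynein light chain gene, had 0.112 ± 0.250 CPM in LiCl and 4.73 ± 2.74 CPM in UV (mean ± SD, n = 5) (log2 fold change −4.99 ± 0.86 SE, edgeR adjusted p = 0.003).

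At the extreme, 7 genes had at least 10 counts in every LiCl library and 3 or fewer in every UV library, and 4 genes had the opposite pattern. Against the limit of 3 counts in each UV library, ntrk2, which encodes a neurotrophin receptor of the Trk family, was at least 16.5-fold higher in LiCl, with 48, 50, 58, 27 and 17 counts in LiCl 1 to 5 and 2, 2, 3, 0 and 1 counts in UV 1 to 5. The neurotrophin gene ngf was at least 6.01-fold higher, with 11, 16, 20, 14 and 18 counts in LiCl and 1, 0, 2, 2 and 1 counts in UV. A neurotrophin ligand gene and a neurotrophin receptor gene were thus both counted in LiCl at low levels, and both stayed at 4 counts or fewer in every untreated library. The gene veph1 was at least 17.0-fold higher, and the remaining 4 genes have no symbol, with bounds from 14.4-fold to 26.3-fold. In UV the named gene was krt16, at least 4.53-fold higher than in LiCl, and the gene with the largest bound was Xetrov72002596, at 14.5-fold, with a total of 1 count in the 5 LiCl libraries. These bounds are ratios of the mean level in the higher condition to the level of 3 counts in the other. They include neither counting error nor the spread between libraries.

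Genes called in the same direction lay next to each other on the scaffolds of assembly v7.1 in 54 neighbouring pairs higher in LiCl and 26 higher in UV. More genes were higher in LiCl (422, 3.13% of those tested) than in UV (329, 2.44%). The numbers of pairs and runs that random positions would give were not worked out, so these counts are descriptive. There were 7 runs of 3 or more neighbours higher in LiCl, with 22 genes in all, and 1 run of 3 genes higher in UV. A run on scaffold 1 between 95949201 and 95990591 held foxd4l1.2, foxd4l1.1 and Xetrov72020537, at log2 fold changes from 1.94 to 4.02. A run on scaffold 3 between 75944037 and 75989188 held 4 genes without a symbol on the same strand, at 2.21 to 2.92. The run higher in UV lay on scaffold 9 between 80847585 and 80989630, around slc9a3r2, at −3.997 to −3.051. Neighbours in such runs may be copies that share reads or pieces of a single gene, which was not tested.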

How the data were processed

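RNA-seq was analysed in 5 LiCl-treated and 5 UV-treated libraries, with 5 untreated libraries as background. The deposited table holds raw read counts for each gene. To make it, the authors aligned read pairs with TopHat2 to assembly v7.1, restricted to the junctions of gene models v7.2, and assigned them to genes with HTSeq-count (mode intersection-nonempty). The submitters' processing notes list TopHat2 2.1.1 and 2.0.10. The strand setting is not given in the sources used here and the kit does not mark strand, so genes that overlap on opposite strands are uncertain (83 of the 751 genes called). The deposited gene models gave positions only, as start and end coordinates. Overlap was judged on these spans with introns included, so shared exons were not shown.

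The main test was the robust quasi-likelihood test of edgeR 4.0.16 under R 4.3.3, fitted on the 10 libraries with condition as the only term, genes at 10 or more counts in at least 5 of the 10 libraries, and TMM factors computed over all 15 libraries. The threshold was that of the study, 2-fold at an FDR of at most 1%. The pipeline was also run on simulated counts with known changes. These were drawn without outlying libraries or effects shared between libraries, so the run does not bear on such features of the data. SE is the log2 fold change divided by the square root of F. Totals ranged from 8412818 to 18254396 counts, and bounds use a floor of 3 counts per library. The bounds divide the mean level of the higher condition by that floor and include neither counting error nor spread between libraries. The reads carry no molecular identifiers. Alternatives were other normalisations, filters, thresholds, samples in the fit, DESeq2 1.42.0, glmTreat, a replicate block and leaving out each library.

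The members and lists were chosen with earlier results of these data known, so no set test was run. Genes named singly were the axis markers, the 12 largest changes and the 5 most abundant genes in each direction among genes called with a symbol (the abundant ones also without), at least 1 CPM, no overlap between conditions and no mention in the study's text, and up to 4 called members of each list in each direction, or its 2 most abundant members where none was called. Other list members, and the genes counted in a single condition or in runs, are named with their values only as parts of a count. Some genes named by these rules are not reported here.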

Additional observations from a re-analysis of the deposited data

Results flagged for a closer look

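Within the groups of 5 libraries, a value was picked out when its gap to the nearest other library exceeded Dixon's 95% critical value. Chance alone picks out about 1 in 20 groups, and the choice was made over the summed levels of the lists, the axis markers, and the genes with the largest changes or highest levels.

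LiCl 4 was picked out most often among the summed levels. It was the lowest LiCl library for ventral and lateral mesoderm, blood and vessels (674 CPM), paraxial mesoderm and somites (1720 CPM), the retinoic acid pathway (1730 CPM), keratins (1060 CPM) and extracellular matrix and integrins (2140 CPM), while for Nodal and activin signalling it stood at 1100 CPM, the highest of its group. For gsc it was the highest LiCl library, at 544 CPM. LiCl 5 was picked out as the highest of its group for ventral and posterior genes, with hox paralog groups 5 to 13 at 14.9 CPM in sum, msx1 at 36.9 CPM and msgn1 at 23.9 CPM. It was also the highest LiCl library for the ectodermal genes ag1 (113 CPM), krt5.7 (329 CPM) and vsig8 (3.58 CPM), for fbn3 (35.3 CPM) and for dynlt3 (0.56 CPM). Among UV libraries, UV 3 was the highest for the neural plate list (5560 CPM in sum) and for pdp2 (1.02 CPM), UV 4 for dynlt3 (9.58 CPM), and UV 5 for dlg4 (0.689 CPM). The Wnt list in UV 5 summed to 6540 CPM. The causes of these differences between libraries of a condition were not tested.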

How the results depend on the processing

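The number of genes past the threshold (751, with 422 higher in LiCl and 329 in UV) depended on the test and on single libraries. DESeq2's Wald test called 1318 genes (828 in LiCl), and all 751 were among them. Testing against a fold change of 2 with glmTreat left 173 (98 in LiCl and 75 in UV), and an FDR of 5% gave 1356 (857 and 499). With a single library left out, the total ranged from 448 to 1158, genes higher in LiCl from 237 to 753 and genes higher in UV from 208 to 405. Other normalisations and filters, no minimum fold and all 15 libraries in the fit gave 748 to 894 genes, and the share higher in LiCl stayed between 54.7% and 61.3% under them. With a single library left out, that share ran from 49.3% without UV 1 (287 in LiCl and 295 in UV) to 65% without LiCl 4. Library totals alone moved the median log2 fold change of all genes to 0.08 and no filter to 0.11.

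Of the 136 genes reported singly that were called, 80 were called in all 10 fits with a library left out, and 56 lost the call in at least 1 of them, with adjusted p-values of up to 0.03. No such gene changed direction in any setting. Counts of list members moved by over 1.5 times in 342 of 1386 comparisons. The replicate numbers of LiCl and UV were not taken as pairs, since no label says what a number shares and deviations from the group means correlated at 0.217, 0.415, 0.257, −0.141 and 0.412 for numbers 1 to 5, with number 4 negative. As a hint of shared numbers, LiCl 1, 2, 3 and 5 and UV 2 and 5 correlated best with their own number, and LiCl 4 and UV 1, 3 and 4 did not. With the replicate number as a block, 608 genes were called (326 in LiCl and 282 in UV), 526 of them also without it. Of the genes reported singly 28 were not called with the block and 1, hoxa7, was called only with it. General endoderm genes higher in UV went from 2 to 0 and hox groups 5 to 13 from 0 to 2. Low levels limit precision, since 303 of the 13480 genes tested had means under 1 CPM in both conditions.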

Other observations

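Some of the largest differences concerned genes of metabolism, scaffolds and the cytoskeleton that are not described above. The gene pdp2, which encodes a phosphatase that activates pyruvate dehydrogenase, had 4.74, 14.4, 16.1, 3.23 and 4.25 CPM in LiCl 1 to 5 and 0.139, 0.162, 1.02, 0.241 and 0.172 CPM in UV 1 to 5 (log2 fold change 4.49 ± 0.69 SE, edgeR adjusted p = 0.00174). It was called with each library left out, and the untreated mean was 2.51 CPM. The gene dlg4, which encodes a scaffold protein of neuronal synapses, had 5.57 ± 5.71 CPM in LiCl and 0.209 ± 0.276 CPM in UV (mean ± SD, n = 5), with the call lost without LiCl 2, LiCl 3, UV 1, UV 2, UV 3 or UV 4, with an adjusted p of up to 0.0247. The fibrillin gene fbn3 had 2.47, 3.65, 7.62, 1.31 and 35.2 CPM in LiCl 1 to 5 and 0.208, 0.487, 0.323, 0.181 and 0.344 CPM in UV 1 to 5, with the call lost without LiCl 3, UV 1, UV 2, UV 3, UV 4 or UV 5, with an adjusted p of up to 0.0176. Untreated embryos had 0.716, 9.50, 1.04, 0.258 and 75.1 CPM in untreated 1 to 5. Both dlg4 and fbn3 passed the count minimum only through LiCl, so no fold change is given. LiCl 5 and untreated 5 were the highest libraries of their conditions for fbn3, while UV 5 was at 0.344 CPM.

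At the UV end, the villin-like gene vill had 0.699 ± 0.815 CPM in LiCl and 12.3 ± 10.2 CPM in UV (mean ± SD, n = 5) (log2 fold change −4.04 ± 0.81 SE, edgeR adjusted p = 0.0071, call lost without any library except LiCl 5, UV 1 and UV 3, with an adjusted p of up to 0.021), and it overlaps a gene on the opposite strand. The annexin gene anxa9 had 0.206, 0, 0.128, 0 and 0.504 CPM in LiCl 1 to 5 and 1.81, 1.95, 3.12, 8.49 and 13.3 CPM in UV 1 to 5, with the call lost without LiCl 1, LiCl 2, LiCl 3 or UV 4, with an adjusted p of up to 0.0129. It passed the count minimum only through UV. The gene vsig8, an immunoglobulin-domain gene, had 0.618, 0.684, 0.768, 0 and 3.58 CPM in LiCl 1 to 5 and 16.6, 20.9, 14.5, 52.8 and 61.8 CPM in UV 1 to 5 (log2 fold change −4.78 ± 0.81 SE, edgeR adjusted p = 0.00272, call lost without LiCl 1 or LiCl 3, with an adjusted p of up to 0.01). For vill, anxa9 and vsig8, UV 4 and UV 5 were the highest UV libraries and LiCl 5 was the highest LiCl library. Among cell-cycle genes, cdk15 had 6.49, 16.9, 8.32, 5.16 and 13.8 CPM in LiCl 1 to 5 and 1.46, 1.95, 1.24, 1.39 and 1.72 CPM in UV 1 to 5 (log2 fold change 2.71 ± 0.35 SE, edgeR adjusted p = 0.000852), while cdc123 had 4.53, 4.45, 5.32, 3.85 and 3.08 CPM in LiCl 1 to 5 and 10.7, 8.43, 14.5, 13.9 and 12.7 CPM in UV 1 to 5 (log2 fold change −1.51 ± 0.22 SE, edgeR adjusted p = 0.00135) and overlaps a gene on the opposite strand. The mitotic kinase gene cdk1 had 65.2 ± 22.3 CPM in LiCl and 133 ± 23.0 CPM in UV (mean ± SD, n = 5) and overlapped between conditions (log2 fold change −1.03 ± 0.22 SE, edgeR adjusted p = 0.00916, call lost without any library except LiCl 5 and UV 1, with an adjusted p of up to 0.0277). The untreated means were 2.36 CPM for cdk15, 7.48 CPM for cdc123 and 129 CPM for cdk1.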
